A study of Arabidopsis thaliana with 12 samples.

Results

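XERICO (locus AT2G04240) encodes a small RING-H2 protein of Arabidopsis thaliana. It was read by 1 probe set, the only one that the platform's probe-to-gene table assigned to this gene, and the table gives that probe set no other gene. It was 1 of 13350 genes that had a probe set of their own among 22746 probe sets for genes. Whole seedlings of the Col0 ecotype, grown on plates to 12 days and then moved to 6-well plates, were measured on 12 Affymetrix ATH1 arrays, 3 in each of 4 groups. The ABA+DFPM group received 30 µM DFPM, a synthetic furan thioamide, and 10 µM the hormone abscisic acid (ABA), which governs drought responses and seed dormancy, for 6 h, with DFPM given 30 min ahead of ABA. The ABA group received 10 µM ABA for 6 h, and the DFPM group 30 µM DFPM for 6 h. The DFPM label also places the compound 30 min ahead of an ABA treatment, although the sample titles name DFPM alone, and the groups follow the titles. The control group received DMSO diluted 1 in 5000 in water, for a time that its label does not state. The 4 groups ask how the hormone, the compound and both together alter seedling gene expression.

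RING-H2 proteins act as ubiquitin ligases: they bring a ubiquitin-conjugating enzyme to a target protein, which is then marked, often for breakdown. In Arabidopsis, plants that make extra XERICO hold more ABA and lose less water in drought. The gene is also known as a target of the DELLA proteins, the repressors of gibberellin responses, so that it has been placed where the ABA and gibberellin pathways meet.

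Levels below are deposited log2 values made with GCRMA, so a difference of 1 is a 2-fold change. Tests were made with limma over the 14401 probe sets that reached log2 4 on at least 3 of the 12 arrays, and a change was called at a Benjamini-Hochberg adjusted p under 0.05. Sample titles number the arrays 1 to 3 in each group. Arrays with the same number deviated together across groups, though numbers 1 and 2 did so with each other almost as much, and within groups numbers 1 and 2 were alike (r from 0.987 to 0.992) while number 3 stood apart from both (r from 0.875 to 0.920). Each result is therefore given without and with the number as a block, that is, with arrays compared inside their own number. Separate cultures are not stated for the arrays within a group, so p-values measure only how these samples vary, and that variation may be technical. In whole seedlings, fewer cells of a type and less RNA per cell cannot be told apart.

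XERICO was highest in ABA-treated seedlings and lowest in DFPM-treated seedlings. Its level was 8.75, 8.56 and 7.45 on ABA+DFPM arrays 1, 2 and 3, with a mean of 8.25 ± 0.70 (SD, n = 3). It was 10.07, 10.02 and 8.65 on the ABA arrays, with a mean of 9.58 ± 0.81. The DFPM arrays read 8.01, 8.24 and 7.18, with a mean of 7.81 ± 0.56, and the control arrays 9.33, 9.16 and 8.05, with a mean of 8.85 ± 0.69. In each group number 3 was the lowest array, and for all 5 pairs of groups compared here the arrays of one group overlapped those of the other. Arrays did not overlap for 46.8% of probe sets between ABA and control, 44.3% between DFPM and control, 35.8% between ABA+DFPM and ABA, 32.5% between ABA+DFPM and DFPM and 56.1% between ABA+DFPM and control. ABA array 3, at 8.65, lay under the first ABA+DFPM array, at 8.75, and under controls 1 and 2. The second DFPM array, at 8.24, lay above the third control, at 8.05.

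**Figure D1:**
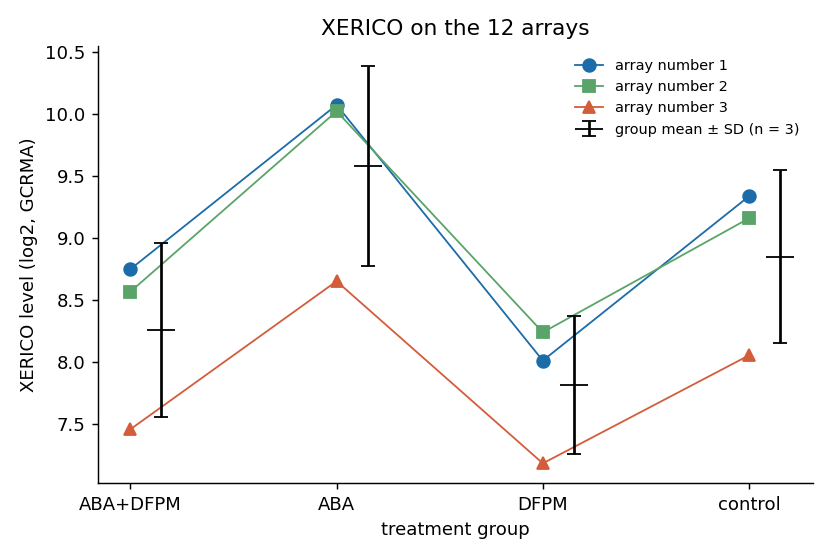
XERICO level (log2, y axis) on each of the 12 arrays by treatment group (x axis), with lines joining arrays of the same number and black bars giving the group mean ± SD (n = 3). The 3 lines keep the same shape, with the peak at ABA and the trough at DFPM, and the line of number 3 lies below the others in every group.

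Inside each number the order was the same: ABA, then control, then ABA+DFPM, then DFPM. The highest group exceeded the lowest by 2.06 in number 1, 1.78 in number 2 and 1.47 in number 3, which is 4.17-, 3.44- and 2.77-fold. Across all 14401 probe sets, 2535 (17.6%) kept a single order of the 4 groups in all 3 numbers. The order of XERICO was held by 121 of them (0.840%), and the reverse order by 314 (2.18%). With the mean of each number taken away, the groups lay at -0.37 ± 0.07 for ABA+DFPM, 0.96 ± 0.12 for ABA, -0.81 ± 0.19 for DFPM and 0.22 ± 0.07 for control (SD, n = 3). All 4 groups then stood apart from their neighbours in the order, but how many probe sets do so after this centring was not counted. The limma F test for any difference among the groups gave F = 4.36 (adjusted p = 0.0619) without the block, and 51.8 (adjusted p = 6.98e-05) with it. At the same threshold 49.8% of probe sets were called without the block and 73.4% with it. Without the block, the F test passed when the third ABA array (adjusted p = 0.0230) or the third control array (adjusted p = 0.0393) was left out.

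ABA-treated seedlings had more XERICO than control seedlings in every number. The difference was 0.74 in number 1, 0.86 in number 2 and 0.60 in number 3, or 1.67-, 1.82- and 1.51-fold. The 3 differences lay close together, with a mean of 0.73 ± 0.13 (SD, n = 3 pairs). In limma the change was 0.73 ± 0.52 (SE; 95% interval -0.42 to 1.89; adjusted p = 0.325) without the block, where 28.9% of probe sets were called, and 0.73 ± 0.15 (0.39 to 1.07; adjusted p = 0.0040) with it, where 48.5% were called. In this comparison 42.4% of probe sets had a larger change.

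DFPM-treated seedlings had less XERICO than control seedlings in every number. The difference was -1.33, -0.92 and -0.87 in numbers 1, 2 and 3, so that the level was 2.51-, 1.89- and 1.83-fold lower. The drop was larger in number 1 than in the other numbers, and the mean was -1.04 ± 0.25 (SD, n = 3 pairs). limma gave -1.04 ± 0.52 (-2.19 to 0.12; adjusted p = 0.171) without the block, against 24.0% of probe sets called, and -1.04 ± 0.15 (-1.38 to -0.70; adjusted p = 9.05e-04) with it, against 47.4% called. A larger change was seen in 27.8% of probe sets.

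With DFPM present beside ABA, XERICO was lower than with ABA alone. The difference was -1.32, -1.46 and -1.19 in numbers 1, 2 and 3, which is 2.50-, 2.74- and 2.29-fold lower, with a mean of -1.32 ± 0.13 (SD, n = 3 pairs). This was the largest of the 5 differences between groups. limma gave -1.32 ± 0.52 (-2.48 to -0.17; adjusted p = 0.130) without the block, with 12.6% of probe sets called, and -1.32 ± 0.15 (-1.67 to -0.98; adjusted p = 4.16e-04) with it, with 31.2% called. In this comparison 14.3% of probe sets had a larger change.

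ABA given with DFPM left XERICO above DFPM alone by 0.74 in number 1, 0.33 in number 2 and 0.27 in number 3. The first number differed most, and the mean was 0.45 ± 0.25 (SD, n = 3 pairs). In limma the change was 0.45 ± 0.52 (-0.71 to 1.60; adjusted p = 0.616) without the block, with 14.2% of probe sets called, and 0.45 ± 0.15 (0.10 to 0.79; adjusted p = 0.0472) with it, with 35.2% called. The blocked call was the weakest of the 5: with any 1 of the 12 arrays left out, the adjusted p ran from 0.0291 to 0.208, and it stayed under the threshold only without the third ABA array or the third DFPM array.

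Seedlings given both agents also had less XERICO than control seedlings, by almost the same amount in each number: -0.59, -0.59 and -0.60, or 1.50-, 1.51- and 1.51-fold lower (mean -0.59 ± 0.0040, SD, n = 3 pairs). limma gave -0.59 ± 0.52 (-1.75 to 0.56; adjusted p = 0.371) without the block, with 47.4% of probe sets called, and -0.59 ± 0.15 (-0.93 to -0.25; adjusted p = 0.0075) with it, with 64.2% called. A larger change was seen in 61.5% of probe sets. The array medians also differed between these groups, by -0.29, the widest shift among the 5 comparisons (the others ran from -0.21 to -0.08). Relative to it, XERICO differed by -0.31, and the blocked adjusted p was 0.176. Relative to the median shift the other comparisons read 0.81 for ABA against control, -0.87 for DFPM against control, -1.11 for ABA+DFPM against ABA and 0.57 for ABA+DFPM against DFPM, each still called with the block.

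Whether the ABA change differs with DFPM present was tested as an interaction. If the separate ABA and DFPM changes simply added up, the ABA+DFPM arrays would read 8.74, 9.10 and 7.78 in numbers 1, 2 and 3, beside the measured 8.75, 8.56 and 7.45. The gap was 0.00 in number 1, -0.54 in number 2 and -0.32 in number 3, so it was absent from one number and below 0 in the other two. limma gave -0.29 ± 0.73 (-1.92 to 1.35; adjusted p = 1.000) without the block and -0.29 ± 0.21 (-0.77 to 0.20; adjusted p = 0.641) with it, where 0.375% and 1.40% of probe sets were called. The blocked interval spans from a gap of -0.77 to one of 0.20, so neither an additive nor a less than additive pattern is shown. For 3 arrays against 3, an exact two-sided permutation test on XERICO alone cannot give a p under 0.10, and the 5 comparisons gave 0.20 to 0.50.

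**Figure D2:**
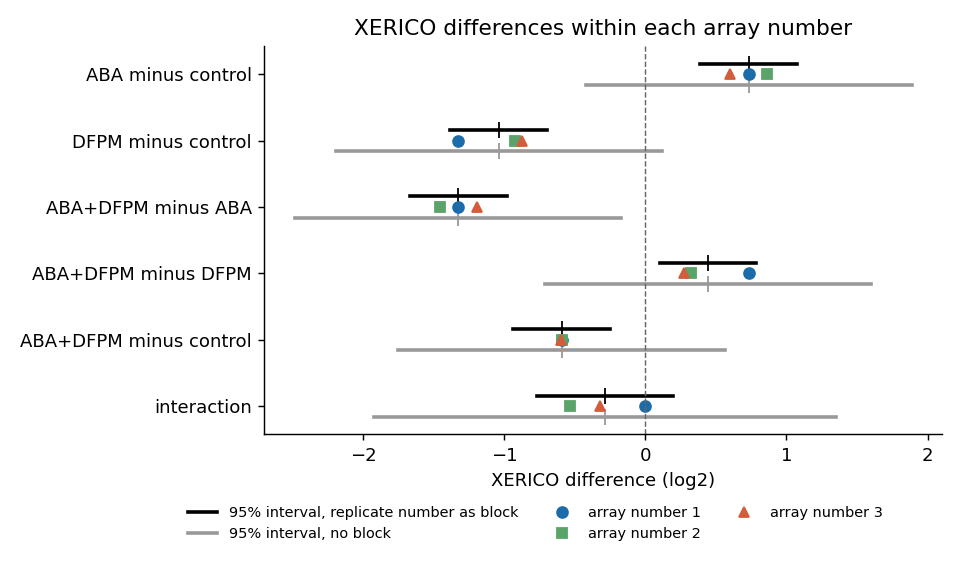
Difference in XERICO (log2, x axis) for each comparison (y axis), with symbols for arrays numbered 1, 2 and 3 and lines for limma's 95% intervals with the number as a block (black) and without it (grey). The blocked intervals exclude 0 in all 5 comparisons between groups and include it for the interaction, while without the block only the interval for ABA+DFPM minus ABA excludes 0.

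The array number was the second source of variation in XERICO. Number 3 differed from the mean of numbers 1 and 2 by -1.20 in ABA+DFPM, -1.40 in ABA, -0.94 in DFPM and -1.19 in control seedlings. Averaged over the groups the gap was -1.18, and the DFPM change, averaged over seedlings with and without ABA, was also -1.18. Of the 14401 probe sets, 7.78% were lower still in number 3, and the median gap was -0.01. Group accounted for 57.8% of the sum of squares of XERICO, number for 40.8% and the remainder for 1.36%, whereas the medians over probe sets were 64.7%, 17.4% and 10.9%. A larger remainder was found in 97.1% of probe sets. The residual SD of XERICO was 0.69 without the block and 0.14 with it, against medians of 0.40 and 0.27 over all probe sets. The labels do not say what a number stands for, and since no source says that numbers 1 and 2 are independent, they were also averaged to 1 value. With that average and the block, DFPM against control (adjusted p = 0.0277) and ABA+DFPM against ABA (adjusted p = 0.0234) were called, but ABA against control (adjusted p = 0.0625), ABA+DFPM against control (adjusted p = 0.0626) and ABA+DFPM against DFPM (adjusted p = 0.277) were not.

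**Figure D3:**
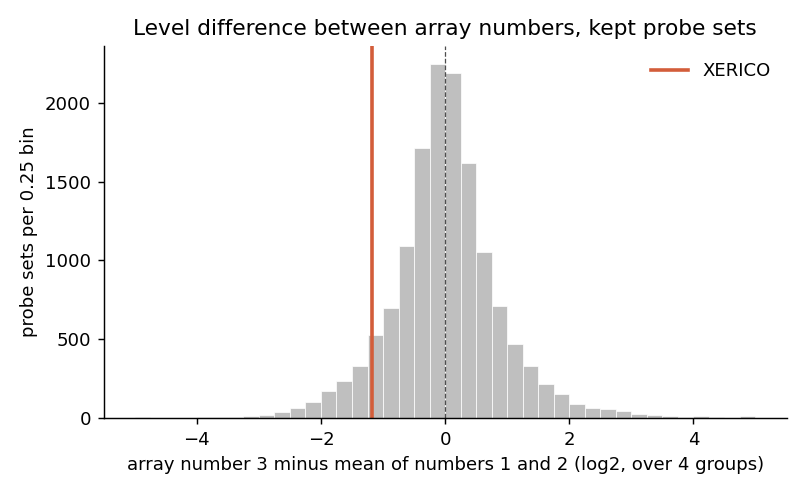
Number of probe sets (y axis, per bin of 0.25) by the level of arrays numbered 3 minus the mean of numbers 1 and 2 (log2, x axis, mean over the 4 groups), for the 14401 probe sets. XERICO, at -1.18, lies in the lower tail, where 7.78% of probe sets are lower still.

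Genes of the pathways around XERICO were read from the same fit, without the block unless stated. Of 17 genes of ABA synthesis and breakdown, 2 had a probe set naming them, both glucosyltransferases that inactivate ABA by attaching glucose. UGT71B6 read 7.15, 6.84 and 7.45 with ABA+DFPM, 6.05, 6.13 and 4.77 with ABA, 7.92, 7.76 and 7.50 with DFPM, and 6.13, 5.53 and 5.70 in controls. All 6 arrays with DFPM lay above all 6 without it. Arrays of DFPM and control alone did not overlap for 44.3% of probe sets. The share separating as fully as this gene was not counted, here or for the genes below. UGT71B6 rose by 1.94 with DFPM against control (adjusted p = 0.0041) and by 1.50 with ABA+DFPM against ABA (adjusted p = 0.0210). The call against ABA was lost without the first or the third ABA+DFPM array (adjusted p up to 0.0650). For the ABA against control comparison its change was -0.14 (adjusted p = 0.801).

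UGT71C5 moved with both agents. It read 7.61, 7.67 and 8.24 with ABA+DFPM, 7.04, 7.05 and 7.02 with ABA, 9.24, 9.36 and 9.33 with DFPM, and 8.76, 8.90 and 8.27 in controls. The 3 ABA arrays were the lowest and the 3 DFPM arrays the highest of the 12. It fell by 1.61 with ABA against control (adjusted p = 4.75e-04) and fell by 1.47 with ABA+DFPM against DFPM (adjusted p = 0.0019). It rose by 0.80 with ABA+DFPM against ABA (adjusted p = 0.0376), a call lost on leaving out any of 8 arrays (adjusted p from 0.0543 to 0.106), and by 0.67 with DFPM against control (adjusted p = 0.0485), lost on leaving out any of 11 arrays (0.0536 to 0.120). With number means removed, Pearson's r with XERICO over the 12 arrays was -0.85 for UGT71B6 and -0.76 for UGT71C5, a description of arrays that share the 4 group means.

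Of 21 ABA-inducible genes, 5 were measured: COR15A and COR15B, which protect chloroplast membranes in cold, the dehydrins COR47 and LTI30, and LEA4-5, a late embryogenesis abundant protein. All 5 rose with ABA against control, where 14.6% of all probe sets were called higher and 14.3% lower, with a median change of 3.94 beside -0.09 over all probe sets. All 5 also rose with ABA+DFPM against DFPM, where 14.2% of all probe sets were called in either direction. Without ABA, COR15A reached at most 3.39 and LEA4-5 at most 2.39, so both passed the filter at log2 4 only through arrays with ABA. Their rise in both comparisons was thus built into the filter, and the counts and the median include them. COR15B, COR47 and LTI30 passed it on the control arrays as well. With ABA+DFPM against ABA, 3 of 5 fell, against 5.96% called lower among all probe sets (6.64% were called higher), and the median change was -1.18 beside -0.09. COR15A fell by 3.24 (adjusted p = 5.42e-04), COR15B fell by 1.68 (adjusted p = 0.0212) and LEA4-5 fell by 1.18 (adjusted p = 0.0266). The call of COR15B was lost without the second or the third ABA array (adjusted p up to 0.0709), and that of LEA4-5 without any of 3 arrays (adjusted p up to 0.0973). The other 2 differed by -0.08 (COR47) and -0.24 (LTI30) and were not called.

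The ABA change of XERICO, at 0.73, was smaller than that of each of these 5 genes, while its DFPM change against control, -1.04, lay inside their range, from -2.11 for COR15B to 0.74 for LTI30. COR15A read 9.44, 9.99 and 8.87 with ABA+DFPM, 12.42, 12.66 and 12.94 with ABA, 2.14, 3.25 and 2.14 with DFPM, and 2.94, 2.89 and 3.39 in controls. The groups with ABA were far above those without, whose arrays lay at or near the lowest value in the table, 2.14, so the change of 9.60 with ABA depends on that floor. With DFPM against control, 2 of the 5 fell, against 11.4% of probe sets called lower and 12.7% higher. The controls of LEA4-5, at 2.39, 2.14 and 2.39, lay at or near that floor and those of COR15A not far above it, so both had little room to fall. COR15B fell by 2.11 (adjusted p = 0.0047) and COR47 fell by 1.03 (adjusted p = 0.0123). For the interaction, limma called 0 of the 5 without the block (3 had an unadjusted p under 0.05), and with it COR15A alone was (-2.68, adjusted p = 0.0315, and 0.0641 without the block). DFPM arrays 1 and 3 of COR15A lay at the floor, at 2.14, so the size of this interaction depends on that floor too. Over all probe sets, 0.375% were called for the interaction without the block and 1.4% with it, so few calls among 5 genes say little.

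For the gibberellin side, 5 of 23 genes were measured: the gibberellin receptors GID1A, GID1B and GID1C, the F-box protein SLY1, which directs DELLA proteins to breakdown, and SPY, an enzyme that attaches sugar to DELLA proteins. GID1A read 7.94, 8.18 and 7.38 with ABA+DFPM, 8.80, 9.03 and 8.89 with ABA, 8.26, 8.03 and 7.48 with DFPM, and 9.14, 9.44 and 9.04 in controls. The 6 arrays with DFPM lay below the 6 without it. GID1A fell by 1.29 with DFPM against control (adjusted p = 0.0066), fell by 1.07 with ABA+DFPM against ABA (adjusted p = 0.0242, lost without any of 4 arrays, at up to 0.0881) and fell by 1.37 with ABA+DFPM against control (adjusted p = 0.0020). GID1B went the other way, and rose by 0.79 with DFPM against control (adjusted p = 0.0363, lost without any of 6 arrays, at up to 0.131) and by 0.85 with ABA+DFPM against control (adjusted p = 0.0147, or 0.0601 without the second control). SPY fell by 0.65 with ABA against control (adjusted p = 0.0133, up to 0.0551 without the first array of either group) and fell by 0.66 with ABA+DFPM against control (adjusted p = 0.0074). GID1C and SLY1 were called in none of the comparisons.

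Of 22 RING-H2 genes listed beside XERICO, 3 were measured, and their directions differed. BRH1, a brassinosteroid-responsive RING-H2 gene, read 7.45, 8.05 and 6.67 with ABA+DFPM, 8.33, 8.06 and 8.71 with ABA, 7.54, 7.43 and 6.23 with DFPM, and 9.08, 9.13 and 9.27 in controls. The controls were the 3 highest arrays. BRH1 fell by 2.09 with DFPM against control (adjusted p = 0.0055) and fell by 1.77 with ABA+DFPM against control (adjusted p = 0.0054), and its difference between ABA+DFPM and ABA, -0.98, was not called (adjusted p = 0.150, or 0.0828 with the block). RHF1A, known from gamete formation, read 6.62, 6.56 and 7.85 with ABA+DFPM, 5.28, 5.34 and 6.05 with ABA, 7.08, 7.29 and 8.02 with DFPM, and 5.44, 5.35 and 5.73 in controls. All arrays with DFPM were above all those without, and RHF1A rose by 1.96 with DFPM against control (adjusted p = 0.0059) and by 1.45 with ABA+DFPM against ABA (adjusted p = 0.0348, lost without any of 6 arrays, at up to 0.117). ATL8 fell by 1.78 with ABA against control (adjusted p = 0.0419), a call lost without any of 8 arrays (0.0521 to 0.141).

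**Figure D4:**
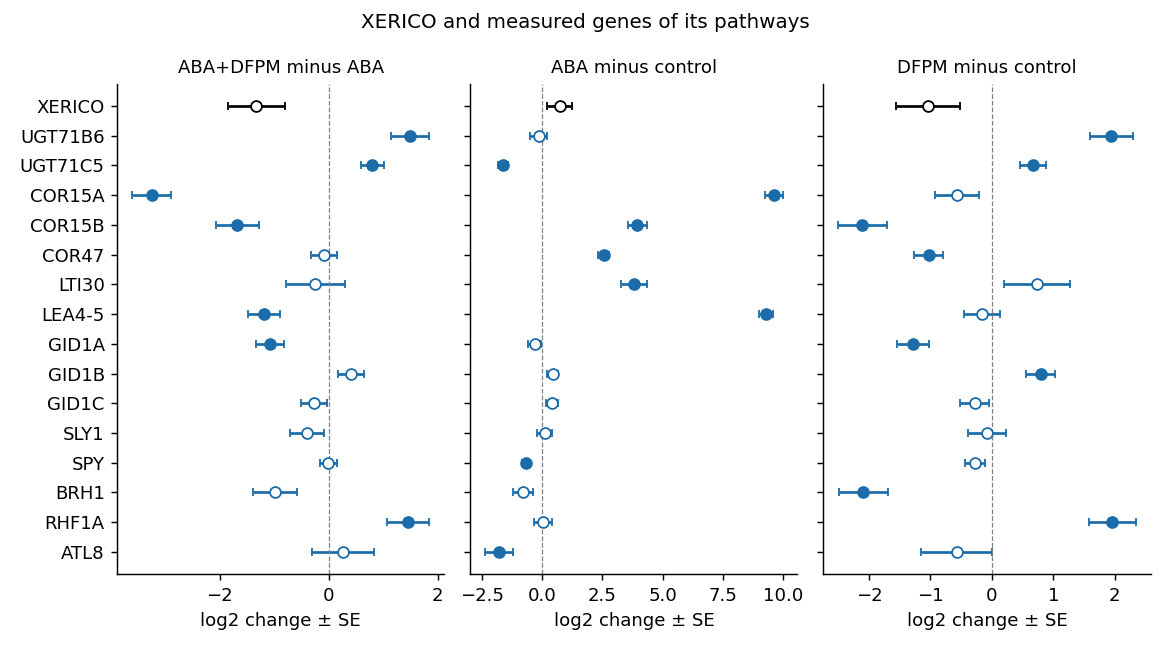
Change (log2 ± SE, x axis, limma without the block, n = 3 arrays per group) of XERICO and the measured genes of ABA inactivation, ABA induction, the gibberellin pathway and the RING-H2 family (y axis) in 3 comparisons, with filled points for adjusted p under 0.05. In both comparisons that add DFPM, XERICO lies on the other side of 0 from UGT71B6 and RHF1A and on the same side as GID1A and BRH1, and its ABA change of 0.73 is small beside those of the ABA-inducible genes.

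Other genes of the ubiquitin system were grouped by name after it was seen which genes the platform table named, and not by their values. The partners of XERICO in the list, the conjugating enzyme UBC8 among them, had no probe set naming them and are not analysed here. Of 12 ligases, the 3 RING-H2 genes above among them, 2 rose and 3 fell with ABA against control, beside 14.6% of all probe sets called higher and 14.3% lower. With DFPM against control 3 rose and 1 fell, beside 12.7% higher and 11.4% lower, and with ABA+DFPM against ABA 3 rose and 0 fell, beside 6.64% higher and 5.96% lower. The median changes of the ligases in these 3 comparisons were 0.00, 0.63 and 0.43, beside medians of -0.09, -0.08 and -0.09 over all probe sets. PUB19, a U-box ligase that dampens ABA and drought responses, read 8.87, 7.79 and 8.55 with ABA+DFPM, 10.07, 9.21 and 10.00 with ABA, 2.82, 2.32 and 3.97 with DFPM, and 2.32, 2.24 and 2.82 in controls. Every array with ABA was above every array without it, and PUB19 rose by 7.30 with ABA against control (adjusted p = 2.81e-06), again from near the floor. Without ABA it reached at most 3.97, so it passed the filter only through arrays with ABA, and its rise was built into the filter. With ABA+DFPM against ABA it differed by -1.35, with adjusted p = 0.0735 without the block and 0.0073 with it.

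The U-box ligases PUB22, PUB23 and PUB24, which restrain immune signalling, took other courses. PUB22 fell by 2.69 (adjusted p = 0.0022) and PUB23 fell by 2.15 (adjusted p = 0.0057) with ABA against control. With ABA+DFPM against ABA, PUB23 rose by 2.21 (adjusted p = 0.0111) and PUB24 by 2.25 (adjusted p = 0.0122). PUB24 also rose with DFPM against control, by 2.23 (adjusted p = 0.0075). Of 10 ubiquitin-conjugating enzymes, 3 rose and 0 fell with ABA against control, beside 14.6% and 14.3% of all probe sets: UBC32, an enzyme of the endoplasmic reticulum, by 2.71 (adjusted p = 5.07e-05), UBC30 by 1.20 (adjusted p = 0.0015) and UBC19 by 0.58 (adjusted p = 0.0389, lost without any of 9 arrays, at up to 0.132). With DFPM against control and with ABA+DFPM against ABA, limma called 0 of 10 without the block (2 and 1 had an unadjusted p under 0.05), where 24.0% and 12.6% of all probe sets were called. With the block it called 2 in each, where 47.4% and 31.2% of all probe sets were called. Of 12 ubiquitin-specific proteases, which remove ubiquitin, 1 rose with ABA against control (UBP26, by 0.76, adjusted p = 0.0371, lost without any of 4 arrays, at up to 0.136), 1 with ABA+DFPM against ABA (UBP19, by 0.65, adjusted p = 0.0444, lost without any of 10 arrays, at up to 0.129) and 0 with DFPM against control in limma without the block (3 had an unadjusted p under 0.05, and 3 were called with the block). These counts of proteases stand beside 14.6%, 6.64% and 12.7% of all probe sets called higher in the 3 comparisons without the block, and 47.4% called with DFPM against control with it.

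Markers of seedling cell types moved with XERICO in part. The mesophyll genes LHCB4.1 and RCA (2 of 4 listed genes measured), which serve light harvesting and carbon fixation, had a summed level between 10.4 and 13.2 in ABA+DFPM seedlings, 13.0 and 13.8 in ABA seedlings, 10.5 and 13.5 in DFPM seedlings and 14.0 and 14.5 in controls. By number the sum ran from 13.0 to 14.5 in number 1, 13.2 to 14.4 in number 2 and 10.4 to 14.0 in number 3. RCA fell by 2.83 with ABA+DFPM against control (adjusted p = 0.0292, lost without any of 4 arrays, at up to 0.0842). The lowest values of this sum, like those of XERICO, were on the arrays numbered 3 of the groups with DFPM, but the highest were in controls and not with ABA.

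SWEET11, a phloem sucrose transporter (1 of 3 vascular markers measured), lay between 9.56 and 10.4 in ABA+DFPM seedlings, 11.2 and 12.3 in ABA seedlings, 9.03 and 10.8 in DFPM seedlings, and at 12.6 on all control arrays. The root hair genes EXPA7 and EXPA18 (2 of 3) had summed levels between 5.16 and 6.85 in ABA+DFPM seedlings, 6.97 and 7.55 in ABA seedlings, 6.34 and 6.86 in DFPM seedlings and 7.39 and 7.61 in controls. Both were lower with DFPM, as XERICO was. With ABA against control SWEET11 changed by -0.99 and the root hair genes by a median of -0.20, none of them called, whereas the change of XERICO was 0.73. The guard cell gene FAMA (1 of 4) overlapped between all groups, but lay between 4.09 and 5.75 in number 3 and between 6.38 and 7.13 in number 1. With the block, FAMA was called lower with ABA and with ABA+DFPM against control, where 48.5% and 64.2% of probe sets were called. Both mesophyll genes, both root hair genes and SWEET11 were called lower with DFPM against control, where 47.4% were called. With ABA+DFPM against ABA, both root hair genes, SWEET11 and 1 mesophyll gene were called lower, where 31.2% were called. FAMA was called in neither of these comparisons. None of the 2 seed markers was measured. The 4 measured reference genes of 6 summed to 10.2 to 10.9 over all arrays. By number their sum ran from 10.48 to 10.92 in number 1, 10.42 to 10.70 in number 2 and 10.25 to 10.35 in number 3, so number 3 was the lowest here too. For RNA quality, the 3′ minus 5′ level of the ubiquitin control probe sets lay between 0.73 and 0.97 in ABA+DFPM seedlings, 0.61 and 0.82 in ABA seedlings, 1.04 and 1.25 in DFPM seedlings and 1.03 and 1.29 in controls, so it was lower with ABA. Actin, between 4.27 and 4.68 in ABA+DFPM, 4.56 and 4.63 in ABA, 4.86 and 5.05 in DFPM and 4.86 and 5.30 in control seedlings, was also lower with ABA. GAPDH overlapped between groups, between 1.05 and 1.27 in ABA+DFPM, 1.24 and 1.32 in ABA, 0.91 and 1.22 in DFPM and 1.09 and 1.31 in control seedlings, except that all ABA arrays lay above all DFPM arrays. The part of these markers and of RNA quality in the XERICO differences was not tested.

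The genes with the most similar treatment pattern were sought among 5873 probe sets that name 1 gene and vary by an SD of at least 0.3 after the mean of each number is removed. Pearson's r with XERICO over the 12 arrays was above 0.9 for 94 of them (1.60%) and below -0.9 for 218 (3.71%). The 8 most similar were AT3G17950 (0.99), AT1G44760 (0.98), AT1G48750 (0.98), AT4G33740 (0.97), AT1G22160 (0.97), AT1G62030 (0.97), AT1G79660 (0.97) and AT1G22550 (0.96), for which the tables used here give a locus and no symbol. These are correlations between arrays that share 4 group means, and 3 of the 8 were also among the 8 highest on values not centred by number, and 4 among the 8 highest by Spearman's rho, ties included.

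AT3G17950, at the top, read 5.70, 5.29 and 4.77 with ABA+DFPM, 6.91, 6.96 and 6.11 with ABA, 4.52, 4.67 and 4.48 with DFPM, and 6.23, 6.14 and 5.70 in controls. It kept the order of XERICO in each number, which its choice by similarity to XERICO favours. Number 3 was again its lowest array in each group. AT1G48750 had the same order with wider steps: it read 6.81, 6.52 and 6.64 with ABA+DFPM, 9.76, 9.62 and 9.83 with ABA, 5.42, 5.30 and 5.90 with DFPM, and 7.14, 7.71 and 7.91 in controls. Its 4 groups did not overlap, and its array 3 was the highest in each group but ABA+DFPM, where it lay between the others. The most opposite were AT5G14730, AT4G19880, AT4G01700 and YLS5 (each r = -0.99). YLS5 read 11.26, 11.19 and 12.89 with ABA+DFPM, 7.83, 8.06 and 9.11 with ABA, 12.73, 12.70 and 13.16 with DFPM, and 9.71, 9.93 and 10.60 in controls, the order of XERICO turned round.

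**Figure D5:**
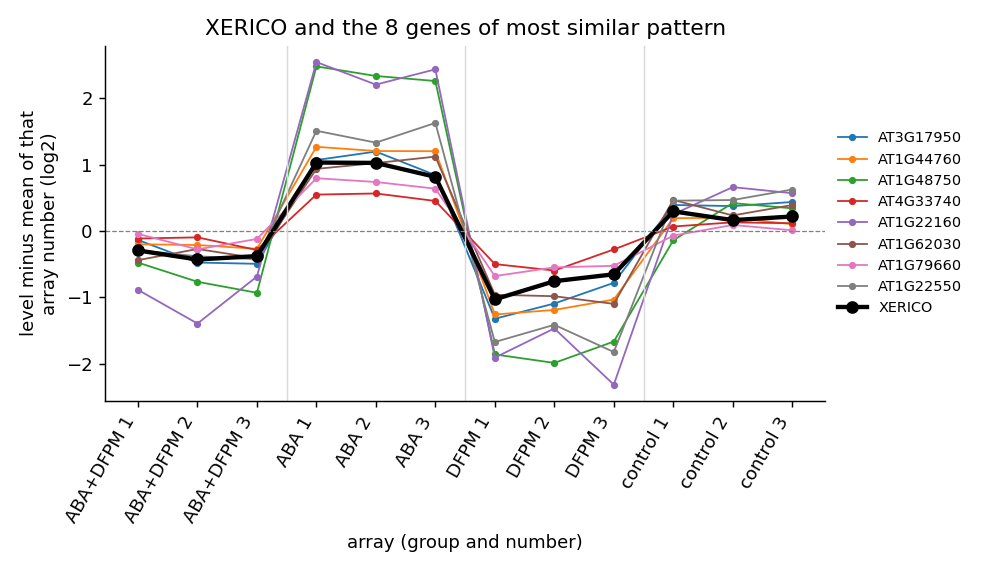
Level minus the mean of the array's own number (log2, y axis) on each of the 12 arrays (x axis) for XERICO (black) and the 8 genes of most similar pattern (colours, r from 0.96 to 0.99). Within each number all curves are highest at ABA and lowest at DFPM, except AT4G33740 in number 3, which lies at -0.288 with ABA+DFPM and -0.279 with DFPM. XERICO has smaller steps than AT1G48750 and AT1G22160. The 8 genes were chosen for their similarity to XERICO on these values, which favours a shared shape.

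Likeness to XERICO in its dependence on the array number was also described. With group means removed instead, the highest r belonged to the 2 probe sets of AT2G30600, to APS4, an enzyme of sulfate assimilation, and to AT1G25400 (each 0.99). The genes of most similar treatment pattern differed in how closely they followed the number pattern. Their r was 0.97 for AT1G22550, 0.96 for AT1G44760, 0.95 for AT1G79660, 0.94 for AT4G33740, 0.92 for AT3G17950 and 0.90 for AT1G62030. AT1G22160 (0.17) and AT1G48750 (-0.57) did not follow it. How many of all probe sets reach so high an r was not counted, so no link between treatment pattern and number pattern is shown. The first probe set of AT2G30600 read 11.15, 10.89 and 9.12 with ABA+DFPM, 11.18, 11.22 and 9.27 with ABA, 10.64, 11.01 and 8.93 with DFPM, and 11.20, 10.90 and 8.96 in controls. Its array 3 was the lowest in each group, and its groups hardly differed, with changes from -0.17 to 0.21 in the 5 comparisons.

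Among the genes within 10 places of XERICO in the RefSeq gene order (assembly TAIR10.1), 3 had a probe set that passed the filter. AT2G04280 also fell with DFPM, by 1.67 against control (adjusted p = 1.67e-04), and fell by 2.19 with ABA+DFPM against ABA (adjusted p = 5.27e-05). With ABA against control it differed by -0.46 (adjusted p = 0.0535, or 0.0309 with the block), the opposite direction to XERICO. AT2G04305 rose by 1.20 with DFPM against control (adjusted p = 0.0075), and AT2G04230 was called in none of the 6 tests. The other 3 with a probe set of their own, AT2G04210, AT2G04220 and AT2G04300, reached at most 2.14 to 2.75 on any array, near the floor.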

How the data were processed

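RNA from whole seedlings was hybridised to 12 ATH1 arrays, 3 per group. The authors deposited log2 expression values per probe set, for which the submitters' processing notes name GCRMA and affy, with no version. The deposited normalization was kept. Of 22810 probe sets, 64 controls were left out, and 14401 reached log2 4 on at least 3 arrays. The number of arrays limits the precision.

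Group means were tested by limma's lmFit and eBayes (version 3.58.1, with R 4.3.3 and statmod 1.5.0; all 12 arrays, two-sided) without a block, with Benjamini-Hochberg adjustment over the 14401. The replicate number as a block is given beside it: deviations from group means correlated in all 18 pairs of arrays with the same number (r from 0.426 to 0.802), which met the rule for treating equal numbers as pairs. Number 1 against number 2 gave r from 0.380 to 0.701 and number 3 against either -0.766 to -0.432, so the pairing mainly sets number 3 apart. Arrays 1 and 2 of a group shared at most 1.17% identical values, so they were not the same values deposited again, and each array was counted. That check cannot tell separate cultures from repeated measurements of the same RNA.

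Alternatives were other blocks, filters, scalings, array weights, a trended prior, fewer arrays and an exact permutation test. Named were XERICO, up to 4 called members of each list per comparison, the 8 most and 4 least similar genes, 4 by number pattern, and chromosomal neighbours. Gene names came from the platform table and RefSeq (TAIR10.1), used for names and gene order only. Of 22746 gene probe sets, 13513 named 1 gene and 8730 were unnamed. Of the 28 listed ABA receptor and signalling genes, 0 had a named probe set; they, like protein and promoter sequences, are not analysed here. The gene and the lists were chosen with earlier results of these data known. The scripts were tested on simulated data. Figures were drawn with matplotlib 3.10.9, and tables made in Python 3.11.15 using numpy 2.4.6 and pandas 2.3.3.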

Additional observations from a re-analysis of the deposited data

How the results depend on the processing

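The direction of XERICO was kept in all 5 comparisons under every alternative run. The replicate block, random effect, filters, trended prior, fits of the 2 groups alone and permutation test leave the size of these changes unaltered. A direction could turn only with arrays rescaled, weighted, averaged or left out. Only the interaction changed sign, without the block: it was 0.11 without the third ABA+DFPM array and 0.11 without the third control. Without a block no comparison passed under another filter, quantile normalization, median centring, a trended prior or a fit of the 2 groups alone. With 1 array left out, with or without the block, values ran from 0.33 to 1.20 (ABA against control), -1.44 to -0.72 (DFPM against control), -1.79 to -0.92 (ABA+DFPM against ABA), 0.13 to 0.85 (ABA+DFPM against DFPM), -0.99 to -0.19 (ABA+DFPM against control) and -0.75 to 0.11 (interaction), with F from 2.72 to 55.3. Of these 12 omissions, 0 passed without the block in any comparison, 12 passed with it in 4 of the 5, and 2 for ABA+DFPM against DFPM. The cause was not tested.

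In the same order, the comparisons that passed were as follows. The replicate block gave 0.73, -1.04, -1.32, 0.45 and -0.59 (F = 51.8), and the number as a random effect passed the first 3, at 0.73, -1.04 and -1.32 (F = 16.2). Array weights gave 0.81, -1.11, -1.42 and, for ABA+DFPM against control, -0.61 (F = 31.5). Numbers 1 and 2 alone gave 0.80, -1.12, -1.39, 0.53 and -0.59 (F = 63.7), and their average with the block -0.997 for DFPM against control and -1.29 for ABA+DFPM against ABA (F = 24.8). Chosen after seeing the data, quantile normalization with the block gave 0.70, -1.08, -1.35 and, for ABA+DFPM against control, -0.65 (F = 48.4), and median centring with the block 0.81, -0.87, -1.11 and 0.57 (F = 28.2). The block raised the number of called probe sets in each comparison, to 6982 against 4165, 6821 against 3463, 4486 against 1814 and 5069 against 2049 in the first 4, and to 202 against 54 for the interaction, where a filter at log2 6 gave 21.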
